A study of Homo sapiens with 18 samples.

Results

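The genes described here are 39 genes of mitosis and the mitotic spindle, measured in MDA-MB-231 cells under paclitaxel or epirubicin, in normoxia and in hypoxia. They were listed by symbol. Each was represented by the probe set with the highest mean among those that the platform's gene table annotates to that symbol alone. All 39 had such a probe set, out of 19775 genes that could be named in this way on the Affymetrix HG-U133 Plus 2.0 array. By role, 7 of them act on cyclins and CDK1, 6 are mitotic kinases or their partners, 4 belong to the spindle checkpoint, 4 to anaphase and protein degradation, 5 to the centromere and kinetochore, 5 are kinesins, 6 are other spindle microtubule proteins and 2 act in cytokinesis. MDA-MB-231 is a line derived from a human breast cancer. The cells stayed for 16 h in a serum-free medium, which the control cells shared, either in a normal atmosphere (N) or at 1% oxygen (H). They received no drug (N and H), 50 µM paclitaxel (N tax and H tax) or 10 µM epirubicin (N epi and H epi). Of 18 arrays, 12 were used, 2 for each of the 6 conditions, and the study describes the repeats as independent experiments. Since p-values rest on 2 arrays a condition, they measure only the spread between these arrays.

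A cell enters mitosis when cyclin B binds CDK1 and CDC25 phosphatases free the kinase from its inhibitory phosphates. Polo-like and Aurora kinases then build the spindle, kinesins move and shorten microtubules, and kinetochores tie chromosomes to microtubule ends. Until all kinetochores are attached, the spindle checkpoint holds back CDC20 and with it the anaphase-promoting complex, a ubiquitin ligase that has securin and cyclin B destroyed. Most of these genes are transcribed late in the cell cycle, from G2 into mitosis. The MYBL2-MuvB complex and FOXM1 activate them then, and the DREAM complex represses them earlier in the cycle. Control runs through promoter elements called the cell cycle genes homology region (CHR) and through CCAAT boxes bound by NF-Y. Paclitaxel binds beta-tubulin and stabilizes microtubules, which arrests cells in mitosis. Epirubicin is an anthracycline, which intercalates into DNA and traps topoisomerase II on it.

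Many of the genes, but not all, hold the letters of these elements, and 6 promoters are shown. Each covers the 100 bases before the most upstream RefSeq transcription start of the gene (assembly GRCh38.p14, plus strand, 5′ to 3′). Of the letters searched, PLK1, CCNB2, CDC20 and KIF4A hold both elements in this stretch, CENPA holds the CHR-type letters only, and CCNB1 holds CCAAT only. Other forms of the CHR were not searched. Capitals mark TTTGAA, the commonest form of the CHR, and CCAAT or its complement ATTGG. The windows are chr16:23678789-23678888 for PLK1, chr15:59105046-59105145 for CCNB2, chr1:43358881-43358980 for CDC20, chrX:70290004-70290103 for KIF4A, chr2:26785956-26786055 for CENPA and chr5:69167050-69167149 for CCNB1.
PLK1: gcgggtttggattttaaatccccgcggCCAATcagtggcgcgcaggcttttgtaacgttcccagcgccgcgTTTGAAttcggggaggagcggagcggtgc
CCNB2: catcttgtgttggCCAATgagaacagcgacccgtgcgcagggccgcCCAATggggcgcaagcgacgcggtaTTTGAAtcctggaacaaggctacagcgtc
CDC20: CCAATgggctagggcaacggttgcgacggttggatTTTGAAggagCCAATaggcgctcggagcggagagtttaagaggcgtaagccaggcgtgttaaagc
KIF4A: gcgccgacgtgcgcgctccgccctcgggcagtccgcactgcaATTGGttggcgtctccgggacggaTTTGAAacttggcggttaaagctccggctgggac
CENPA: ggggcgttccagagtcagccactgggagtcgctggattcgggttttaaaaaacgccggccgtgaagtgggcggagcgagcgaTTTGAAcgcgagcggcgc
CCNB1: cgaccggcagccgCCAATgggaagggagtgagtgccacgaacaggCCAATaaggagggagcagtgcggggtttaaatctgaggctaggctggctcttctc
Across the RefSeq windows of 250 bases before to 50 after the start, 33 of the 39 genes had an entry, and FOXM1, AURKA, BIRC5, TTK, UBE2C and TPX2 did not. Searched on both strands, TTTGAA stood in 22 of the 33 windows (66.7%), against 12% of 15384 windows of named genes. The second CHR form searched, TTCGAA, stood in 2 of the 33 (6.06%, against 1.66%), in BUB1 and NDC80. CCAAT stood in 25 of the 33 (75.8%, against 36.1%), and 19 of the 33 (57.6%, against 5.51%) held CCAAT with either CHR form. No CCAAT match overlapped a CHR match. In 61 other mitosis genes, TTTGAA stood in 33 windows (54.1%), and in 36 DNA replication genes in 2 (5.56%). A match is a description of letters and not of a bound factor. 

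**Figure D1:**
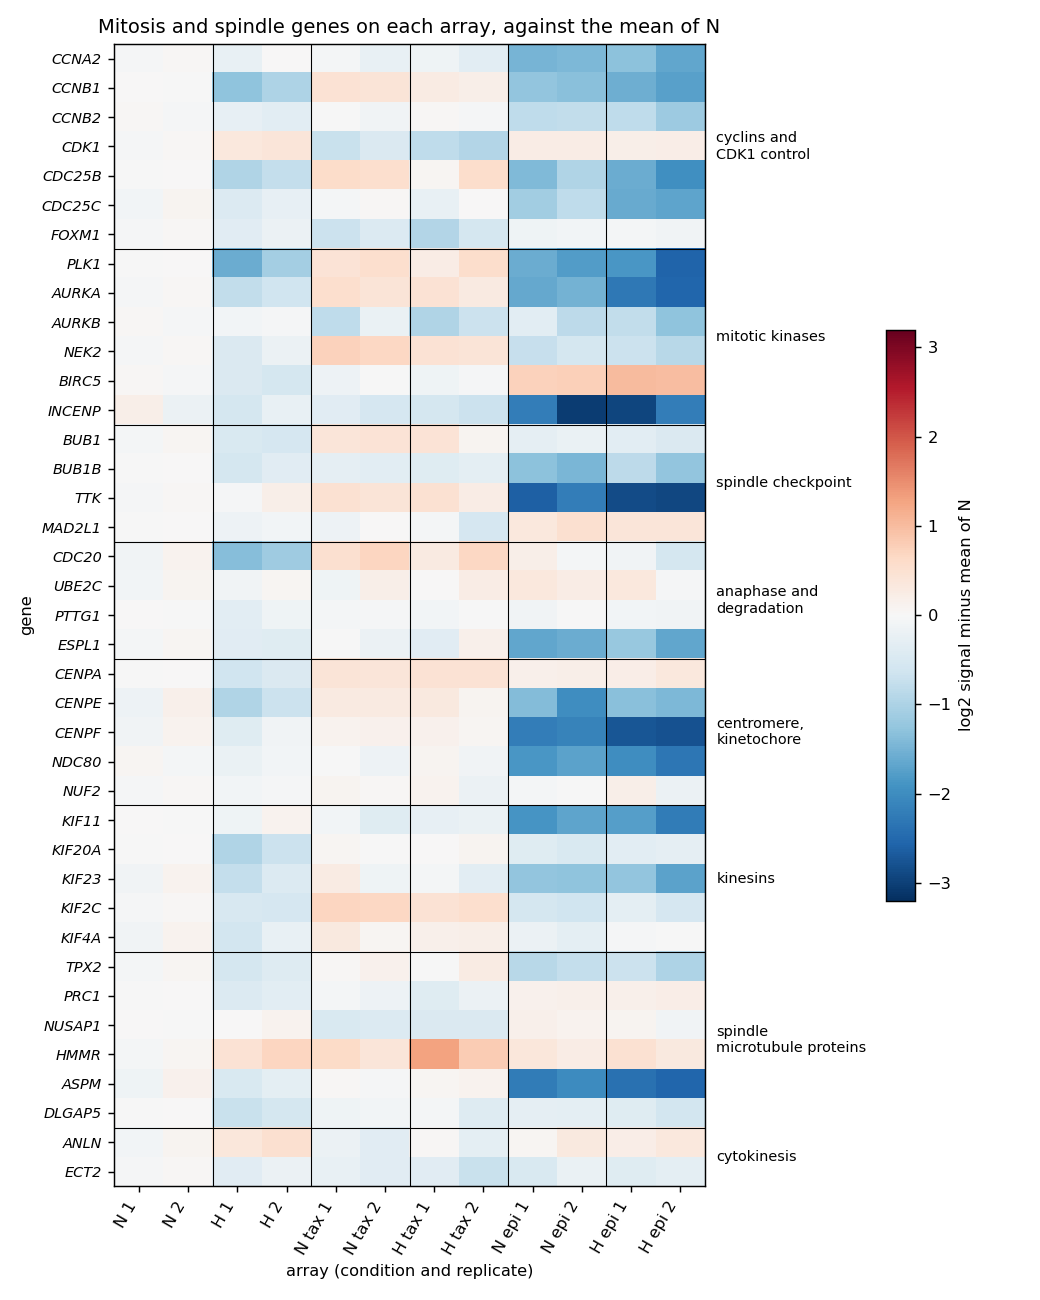
Heat map of the 39 mitosis and spindle genes (rows, grouped by role) on the 12 arrays (columns), as log2 signal minus the mean of the 2 N arrays, blue for lower and red for higher. The H arrays show pale blue in many rows, the N tax and H tax arrays a mixture of red and blue, and the N epi and H epi arrays deep blue in rows such as TTK, CENPF, NDC80, KIF11, ASPM and INCENP, with BIRC5 in red.

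Signals are given on the log2 scale as GC-RMA left them, and each gene is compared only with itself, since signals of different probe sets cannot be set against each other. All differences are in log2 units, with the standard error (SE) of limma's moderated fit over the 12 arrays and a two-sided p adjusted by Benjamini-Hochberg over all 24151 probe sets tested. A gene was called higher or lower at an adjusted p under 0.05. A probe set was tested when it exceeded 3.14 on the log2 scale, the presence threshold the study used, on the 2 arrays of some condition, which all 39 genes did. Replicate arrays correlated across probe sets at 0.9765 (N epi) to 0.9965 (N), and 41.4% to 42.6% of probe sets were present on each array. The median of the tested probe sets was 7.45 to 7.46 on the N arrays and 6.73 to 7.17 on the 4 epirubicin arrays, so the epirubicin counts of the gene lists are given also after centring every array on its median. The difference between the 3′ and 5′ ACTB control probe sets moved with the drug as well, at -0.31 to -0.21 on the epirubicin arrays, -0.04 to -0.02 on N and 0.07 to 0.32 on H, N tax and H tax, and its part in the results was not tested. Of the MDA-MB-231 markers VIM, CD44, CAV1, EGFR, AXL and MET, all 6 were present on every array. Among markers said to be low in the line, CDH1 and PGR were present on no array, while ERBB2 (8.03 to 8.53), EPCAM (6.01 to 8.02) and GATA3 (4.71 to 8.79) were present on every one. Of markers of other cells, PTPRC, CD3E and ALB were present on no array, DES was present on some, and PECAM1, the 1 marker of this list that was tested, ranged from 3.78 to 7.07. PECAM1 differed by -2.10 in N tax against N, -3.04 in H tax against H, -1.80 in N epi against N, -2.65 in H epi against H and 1.00 in H against N, all called, and its part in the results was not tested. In these bulk samples, fewer cells in or near mitosis and less of a transcript per cell cannot be told apart.

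Hypoxia in control cells lowered 12 of the 39 genes and raised none of them. The largest falls were those of PLK1, CDC20 and CCNB1, between 1.14 and 1.34 log2 units, and CDC25B, CENPE, KIF20A, AURKA, DLGAP5, CENPA, BIRC5, KIF2C and BUB1 fell by 0.51 to 0.86. The 12 lowered genes were 30.8% of the list, beside 5.11% of all probe sets tested, and the 0 raised stood beside 4.41%. The list's median difference was -0.37, beside -0.03 over 11193 named genes. At an unadjusted p under 0.05, 24 of the 39 passed. After median centring, 6 genes were lower and none was higher, since BIRC5, BUB1, CENPA, CENPE, KIF2C and DLGAP5 no longer passed. After the same step 3.23% of all probe sets were lower and 4.11% higher. Quantile normalization gave 11 lower and 1 higher. With the unassigned arrays added by their titles 21 were lower and 3 higher, and with them added by their source names limma called 0 (1 at an unadjusted p under 0.05). The count depended on single arrays. It was 1 without N replicate 2, 3 without N replicate 1, 2 without H replicate 1 and 6 without H replicate 2, and CCNB1 alone was called in each of the 12 fits that left out 1 array. With either drug, few genes or none passed. In paclitaxel-treated cells limma called 0 of the 39 genes (H tax against N tax, 2 at an unadjusted p under 0.05), beside 1.06% of all probe sets higher and 0.273% lower, and the 39 differences ran from -0.32 to 0.54. In epirubicin-treated cells AURKA was the 1 gene called, 0.84 (SE 0.12, adjusted p = 0.0251) lower in H epi than in N epi, beside 0.381% of all probe sets higher and 1.13% lower, with 9 genes at an unadjusted p under 0.05. That call was lost in 8 of the 12 fits without 1 array, and 4 genes were called without N epi replicate 1.

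**Figure D2:**
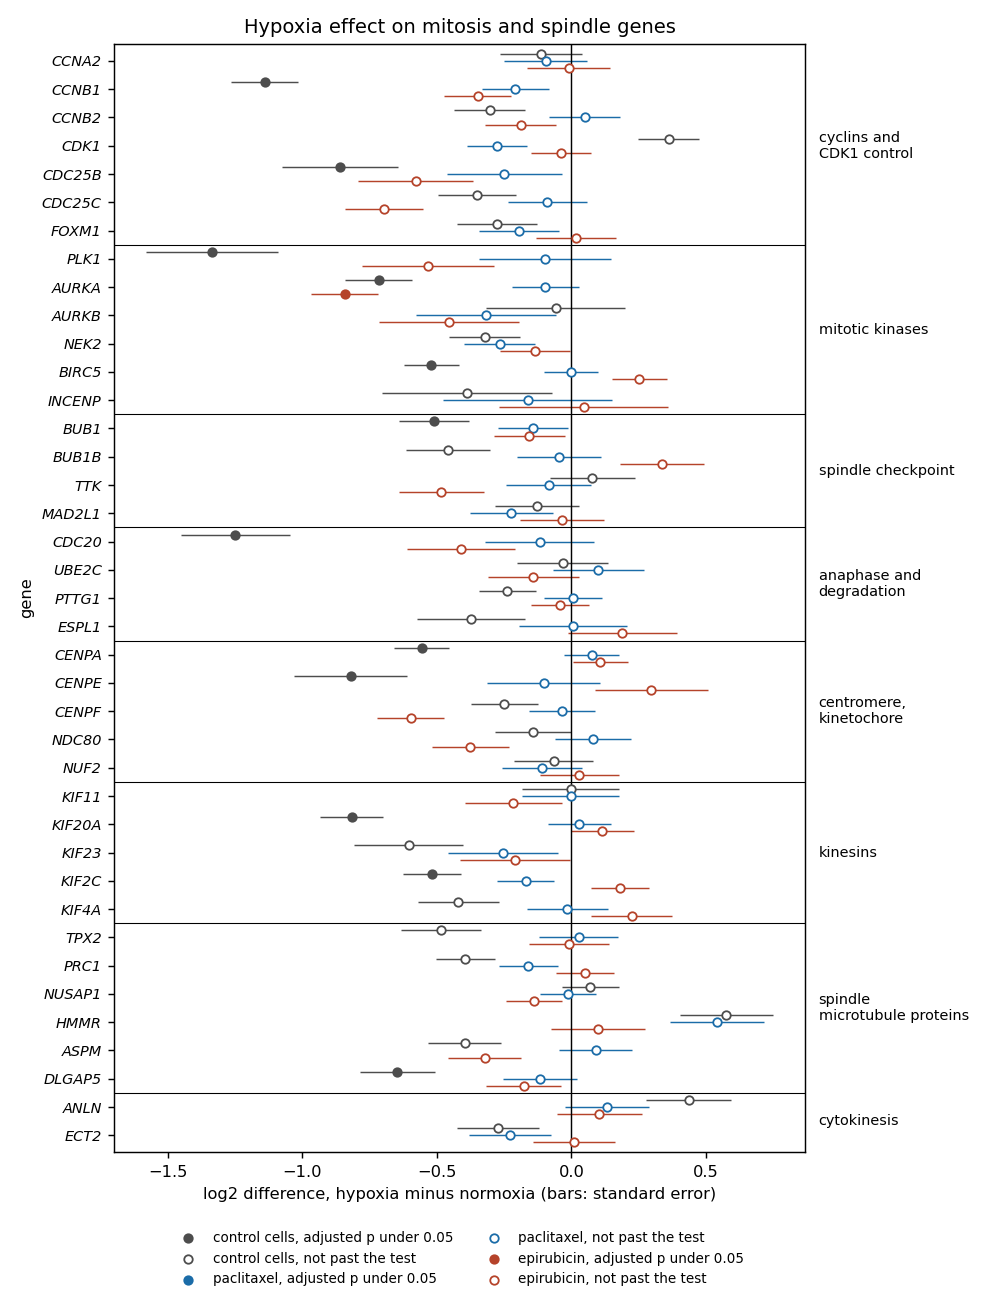
Difference between hypoxia and normoxia for each of the 39 genes (rows), on the log2 scale, in control cells (grey), with paclitaxel (blue) and with epirubicin (red). Points are estimates over 2 arrays a condition, bars are standard errors, and filled points passed the adjusted test. Filled grey points lie to the left of 0 for 12 genes, blue points are all open, and 1 red point, AURKA at -0.84, is filled.

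Tested directly, the hypoxia effect under epirubicin differed from that in control cells for 5 genes, all 5 in the higher direction (12.8% of the list, beside 1.73% of all probe sets; the lower direction held 0, beside 2.23%). They were KIF20A, KIF2C, CCNB1, BIRC5 and CENPA. KIF20A differed by 0.93 (SE 0.16, adjusted p = 0.0242), from -0.82 in control cells to 0.12 under epirubicin. For BIRC5 the difference was 0.77 (SE 0.14, adjusted p = 0.0287), from -0.52 to 0.25. The other 3 differed by 0.79 for CCNB1, 0.70 for KIF2C and 0.66 for CENPA, with adjusted p of 0.0493, 0.0451 and 0.045. No call of the 5 held in every fit without 1 array, and the count was 0 without either N array or without H replicate 1, and 7 without N epi replicate 1. It was 2 after median centring, KIF20A and CCNB1, both higher, beside 2.02% of all probe sets. For paclitaxel against control cells the direct test called 0 of the 39 (limma, 13 at an unadjusted p under 0.05), beside 0.0331% of all probe sets higher and 0.087% lower. The smaller number of genes called in H tax against N tax than in H against N is therefore not shown to be a difference. With the unassigned arrays added by their titles, 7 genes passed this test, all higher.

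**Figure D3:**
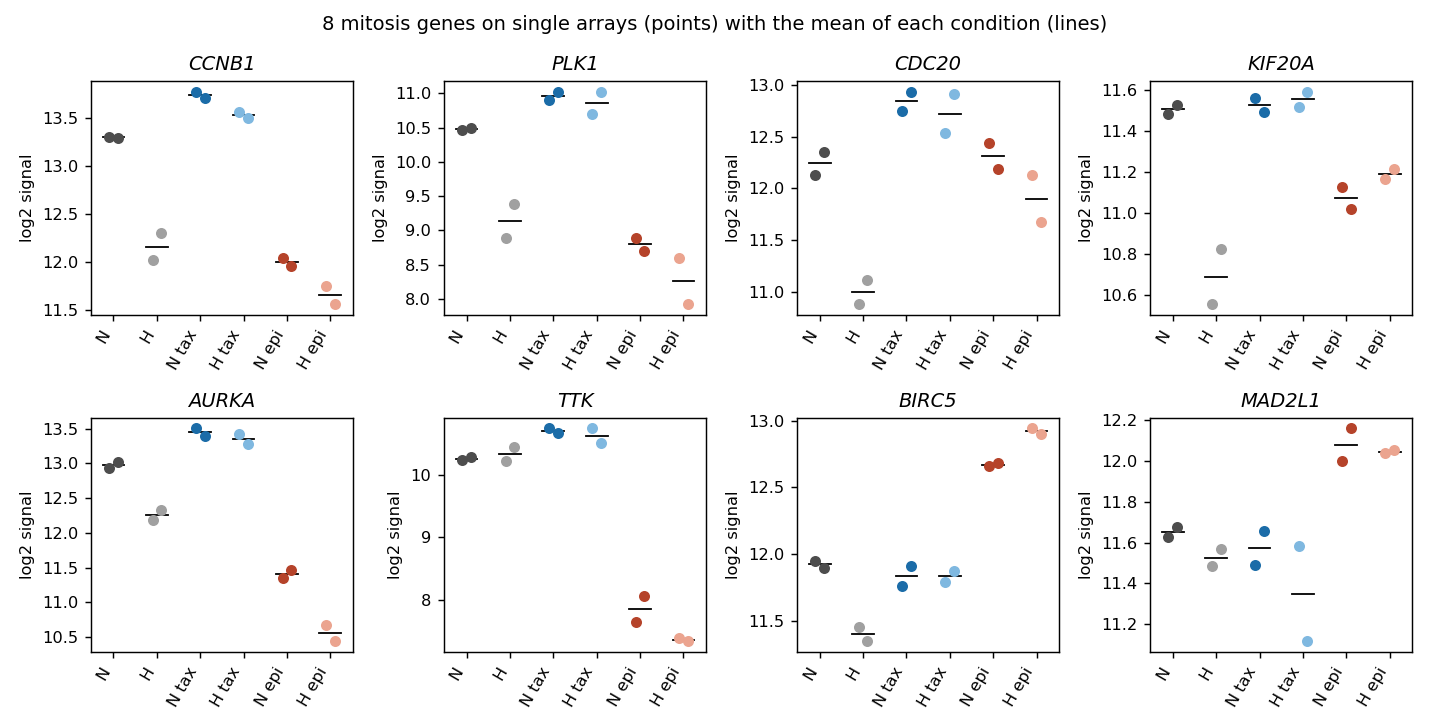
Log2 signals of 8 genes on single arrays (points) with the mean of each condition (lines), each gene on its own axis, which does not start at 0. CCNB1, PLK1, CDC20 and KIF20A lie lower on the H arrays than on N and return to or above N in H tax. AURKA and TTK lie lowest on the epirubicin arrays, where BIRC5 and MAD2L1 lie highest.

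Paclitaxel moved the list in both directions, and in normoxia by small amounts. In N tax against N, 5 genes were higher (NEK2, KIF2C, AURKA, CCNB1 and CENPA, by 0.40 to 0.71) and 3 were lower (CDK1, FOXM1 and NUSAP1, by 0.46 to 0.59). The 12.8% higher and 7.69% lower lie near the 9.49% and 13.8% of all probe sets, and 13 genes passed an unadjusted p under 0.05. The split was 4 higher and 1 lower after median centring (beside 9.7% and 10.4% of all probe sets), and 8 and 3 after quantile normalization. KIF2C alone was called in all 12 fits without 1 array. The count was 2 without either N array, 3 without N tax replicate 1, 4 without N tax replicate 2 and 8 to 10 in the other 8 fits. In hypoxia more genes were called. H tax against H held 15 higher genes (38.5%, beside 13% of all probe sets) and 4 lower ones (10.3%, beside 17%), with a median of 0.30. After centring 14 were higher and 2 lower, beside 13% and 14% of all probe sets. CDC20, PLK1 and CCNB1 rose most, by 1.37 to 1.73, and CDK1 fell most, by 1.23. In each fit without 1 array, 13 to 20 genes were called, and 12 of the 19 were called in all of them. That the effects of paclitaxel differ between the oxygen levels is the test given above, which called none. The H arrays serve both in H against N and in H tax against H, so the falls in one and the rises in the other are not independent.

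**Figure D4:**
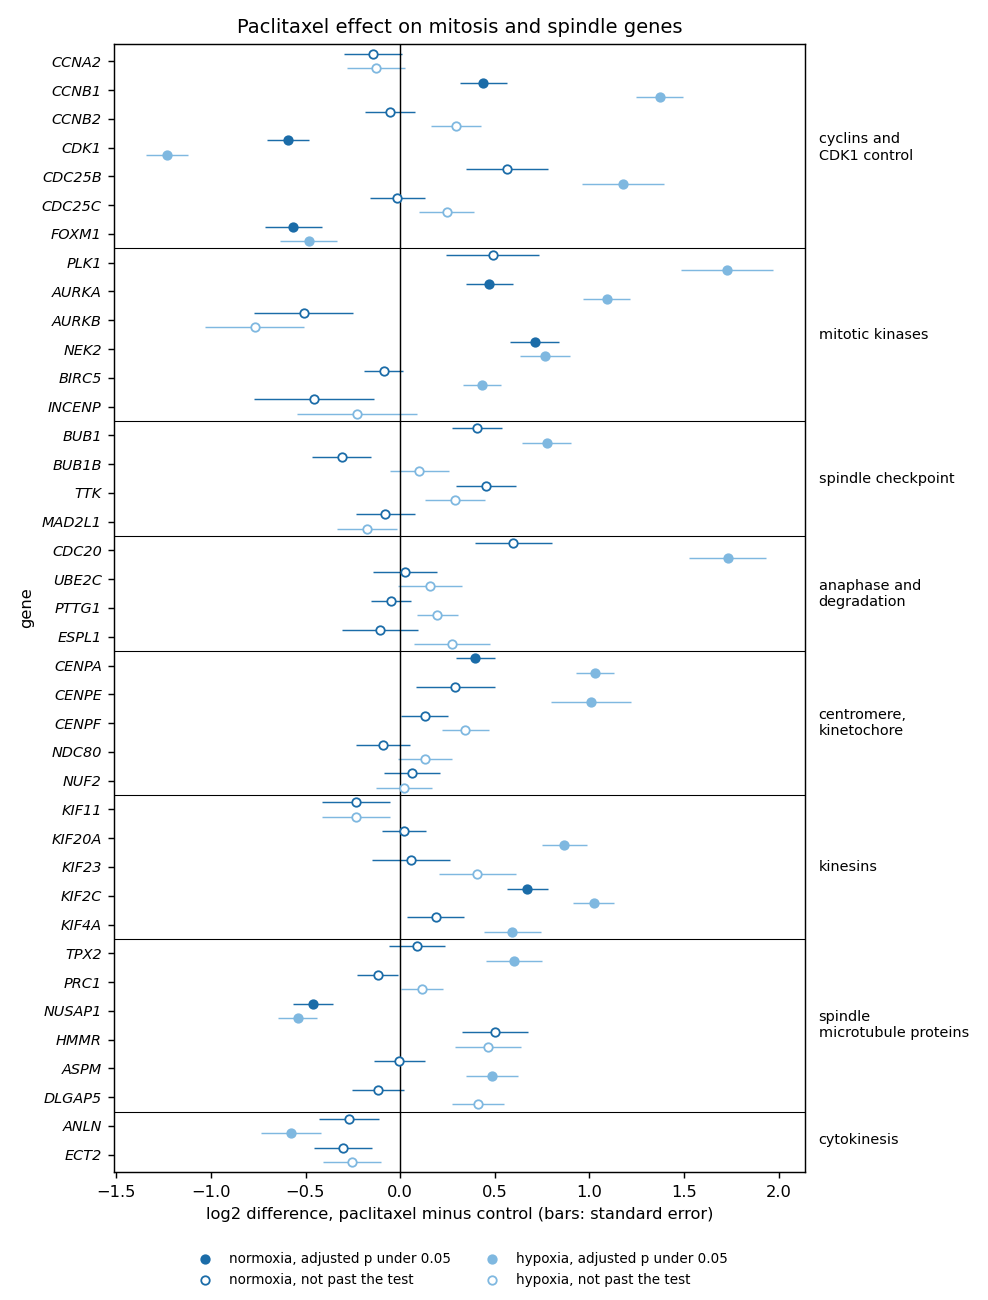
Difference between paclitaxel-treated and control cells for each of the 39 genes (rows), on the log2 scale, in normoxia (dark blue) and in hypoxia (light blue). Points are estimates over 2 arrays a condition, bars are standard errors, and filled points passed the adjusted test. In hypoxia CDC20, PLK1 and CCNB1 lie farthest to the right, at 1.37 to 1.73, and CDK1 farthest to the left, at -1.23.

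Epirubicin lowered most of the genes it changed in normoxia, and in hypoxia before median centring but not after it. In N epi against N, 21 genes were lower (53.8%, beside 27.8% of all probe sets) and 2, BIRC5 and MAD2L1, were higher (5.13%, beside 24.7%). The median was -0.60, beside -0.01 over the named genes. Over all tested probe sets the median difference was 0, with 29 genes of the list below it and 10 above. Quantile normalization gave 23 lower and 1 higher. INCENP, TTK, CENPF and ASPM fell by over 2 log2 units. After median centring, which moves every difference of this comparison by 0.41, 18 genes were lower and 9 higher, beside 19.5% and 46.1% of all probe sets. The falls of NEK2, KIF20A and KIF2C no longer passed, while CDK1, UBE2C, CENPA, PRC1, NUSAP1, HMMR and ANLN passed as higher. Without 1 array 21 to 23 genes were called, 22 of them without N epi replicate 2, whose correlation with its partner was the lowest, and 21 of the 23 were called in every such fit. In H epi against H, 19 genes were lower (48.7%, beside 32.5%) and 7 higher (17.9%, beside 30.9%), with a median of -0.36. Over all tested probe sets the median difference was 0 here too, with 25 genes of the list below it and 14 above. Quantile normalization kept most calls lower, at 21 lower and 5 higher. Centring moves the differences of H epi against H by 0.54 and turned the split to 10 lower and 16 higher. It moved the median over the named genes from -0.03 to 0.53. After the same step 22.6% of all probe sets were lower and 54.3% higher. CCNB1, CDK1, NEK2, TPX2, NUSAP1, HMMR, ANLN and ECT2 then changed sign, and FOXM1, BUB1, UBE2C, PTTG1, NUF2, KIF2C, NUSAP1, DLGAP5 and ECT2 passed as higher, so the directions of this comparison depend on the centring. The 10 that were lower either way were CCNA2, CDC25C, AURKA, INCENP, TTK, ESPL1, CENPF, NDC80, KIF11 and ASPM. Without 1 array 20 to 25 genes were called, the fewest without H epi replicate 2, and 19 of the 26 were called every time.

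**Figure D5:**
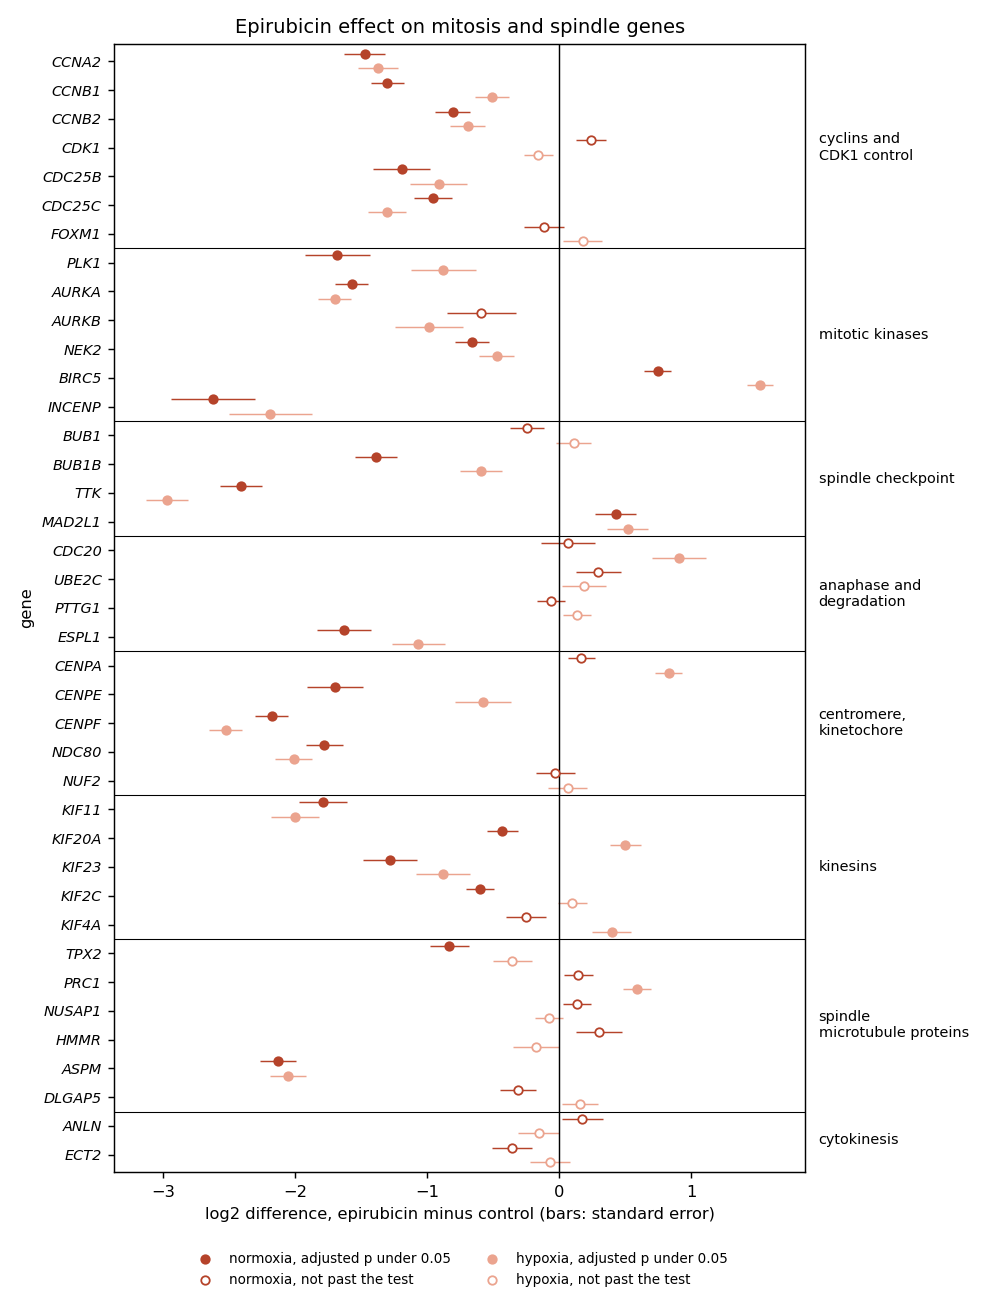
Difference between epirubicin-treated and control cells for each of the 39 genes (rows), on the log2 scale, in normoxia (dark red) and in hypoxia (light red). Points are estimates over 2 arrays a condition, bars are standard errors, and filled points passed the adjusted test. TTK, CENPF, NDC80, KIF11, ASPM, AURKA, CCNA2, ESPL1 and INCENP lie left of -1 in both atmospheres, and BIRC5 and MAD2L1 lie to the right of 0 in both.

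Set against each other in normoxia, the drugs differed for 30 of the 39 genes. In N epi against N tax, 24 were lower (31.7% of all probe sets were) and 6 higher (30.3% of all), with a median of -0.75. After centring 20 were lower and 8 higher, beside 23.3% and 44.9% of all probe sets. The 6 higher before centring were CDK1, BIRC5, NUSAP1, MAD2L1, FOXM1 and ANLN. Among genes present in both conditions TTK differed most, by -2.86, followed by CENPF at -2.31, PLK1 at -2.17, ASPM at -2.12 and AURKA at -2.04, while INCENP, under the presence threshold with epirubicin, was at least 3.23-fold lower and cannot be ranked. Each of the 5 kinesins was lower with epirubicin, by 0.44 to 1.55, but KIF20A (-0.09) and KIF4A (-0.08) did not pass after centring, and the KIF4A call was lost without N tax replicate 1 or either N epi array. Without 1 array 24 to 31 genes were called, and 24 of the 30 each time. UBE2C, PTTG1, NUF2, HMMR and ECT2 were called in none of the comparisons before centring.

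The spindle checkpoint genes parted under epirubicin. TTK (MPS1), the kinase that starts checkpoint signalling at unattached kinetochores, measured 10.23 and 10.28 on the N arrays, 10.22 and 10.45 on H, 10.74 and 10.67 on N tax, 10.74 and 10.50 on H tax, 7.64 and 8.05 on N epi and 7.39 and 7.33 on H epi. The 4 epirubicin arrays lay below all 8 others, and the 4 paclitaxel arrays lay above those of N and H. TTK fell by 2.41 (SE 0.16, adjusted p = 3.32e-05) in N epi against N and by 2.97 (SE 0.16, adjusted p = 5.76e-06) in H epi against H, while its paclitaxel differences were 0.45 and 0.29 and did not pass. BUB1B (BubR1), a subunit of the complex that inhibits CDC20, measured 11.29 and 11.31 on the N arrays, 10.74 and 10.95 on H, 11.01 and 10.97 on N tax, 10.91 and 10.98 on H tax, 10.00 and 9.84 on N epi and 10.48 and 10.03 on H epi. Here too the epirubicin arrays were the lowest 4, and the N arrays were the highest. The fall was 1.39 (SE 0.16, adjusted p = 0.000279) in normoxia and 0.59 (SE 0.16, adjusted p = 0.00988) in hypoxia, where it was 0.37 without H epi replicate 2, and no longer passed without H replicate 2 or after centring. MAD2L1 (MAD2), which binds CDC20 directly, moved the opposite way and measured 11.63 and 11.68 on the N arrays, 11.48 and 11.57 on H, 11.49 and 11.65 on N tax, 11.58 and 11.12 on H tax, 12 and 12.16 on N epi and 12.04 and 12.05 on H epi. All 4 epirubicin arrays lay above the rest, by 0.43 (SE 0.16, adjusted p = 0.0472) in N epi against N and 0.52 (SE 0.16, adjusted p = 0.0177) in H epi against H, although the first call was lost in 10 of the 12 fits without 1 array. BUB1, a kinase that recruits other checkpoint proteins, measured 10.87 and 10.97 on the N arrays, 10.44 and 10.38 on H, 11.30 and 11.36 on N tax, 11.35 and 11.01 on H tax, 10.64 and 10.71 on N epi and 10.59 and 10.45 on H epi. The H arrays were its lowest and the paclitaxel arrays its highest. BUB1 fell by 0.51 (SE 0.13, adjusted p = 0.0466) from N to H, was 0.77 (SE 0.13, adjusted p = 0.0031) higher in H tax than in H, and differed by -0.24 (adjusted p = 0.15) in N epi against N. Its fall in hypoxia was lost in 8 of the 12 fits without 1 array.

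Among the mitotic kinases, PLK1 and AURKA moved in most comparisons, and BIRC5 stood opposite to them under epirubicin. PLK1, which drives centrosome maturation and mitotic entry, measured 10.46 and 10.49 on the N arrays, 8.89 and 9.39 on H, 10.91 and 11.02 on N tax, 10.70 and 11.03 on H tax, 8.90 and 8.69 on N epi and 8.60 and 7.92 on H epi. The H and epirubicin arrays lay at least 1 unit below those of N, and the paclitaxel arrays lay above N. PLK1 fell by 1.34 (SE 0.24, adjusted p = 0.0139) in hypoxia and by 1.68 (SE 0.24, adjusted p = 0.000867) with epirubicin in normoxia, and H tax was 1.73 (SE 0.24, adjusted p = 0.0014) above H. In H epi against H its fall of 0.88 became 0.54 without H epi replicate 2, and it no longer passed without that array, without H replicate 2 or after centring (-0.34). AURKA, the kinase of spindle poles, measured 12.94 and 13.01 on the N arrays, 12.19 and 12.33 on H, 13.50 and 13.39 on N tax, 13.43 and 13.27 on H tax, 11.35 and 11.46 on N epi and 10.68 and 10.44 on H epi. Its arrays formed 4 levels that did not overlap, with paclitaxel highest, then N, then H, and epirubicin lowest. AURKA fell by 0.72 (SE 0.12, adjusted p = 0.0115) from N to H, by 1.57 (SE 0.12, adjusted p = 7.18e-05) from N to N epi and by 1.70 (SE 0.12, adjusted p = 1.92e-05) from H to H epi, and rose by 0.47 (SE 0.12, adjusted p = 0.0282) from N to N tax and by 1.09 (SE 0.12, adjusted p = 0.00053) from H to H tax. NEK2, a kinase that separates centrosomes, measured 10.31 and 10.39 on the N arrays, 9.89 and 10.16 on H, 11.10 and 11.02 on N tax, 10.81 and 10.77 on H tax, 9.60 and 9.78 on N epi and 9.65 and 9.46 on H epi. The paclitaxel arrays were the highest 4 and the epirubicin arrays the lowest 4. NEK2 was 0.71 (SE 0.13, adjusted p = 0.00655) higher in N tax than in N and 0.66 (SE 0.13, adjusted p = 0.00362) lower in N epi, and its fall of 0.47 in H epi against H turned to a difference of 0.07 upwards, not called, after centring.

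The chromosomal passenger complex joins AURKB, its kinase, to the scaffold INCENP and to BIRC5 (survivin), and its transcripts went different ways. BIRC5 measured 11.95 and 11.90 on the N arrays, 11.45 and 11.35 on H, 11.76 and 11.91 on N tax, 11.79 and 11.88 on H tax, 12.66 and 12.68 on N epi and 12.94 and 12.90 on H epi. All 4 epirubicin arrays lay above all others, and the 2 H arrays lay below. BIRC5 rose by 0.75 (SE 0.10, adjusted p = 0.000637) in N epi against N and by 1.52 (SE 0.10, adjusted p = 1.35e-05) in H epi against H, and fell by 0.52 (SE 0.10, adjusted p = 0.0174) from N to H. Its other 3 probe sets were higher with epirubicin in both atmospheres too, by 0.60 to 2.11. INCENP gave low signals and measured 5.49 and 5.09 on the N arrays, 4.74 and 5.07 on H, 4.92 and 4.75 on N tax, 4.74 and 4.61 on H tax, 3.08 and 2.26 on N epi and 2.35 and 3.08 on H epi. The 4 epirubicin arrays lay under the threshold of 3.14, so its fall is a lower bound, at least 4.43-fold in N epi against N (adjusted p = 0.000374) and at least 3.38-fold in H epi against H (adjusted p = 0.00043). AURKB measured 10.44 and 10.37 on the N arrays, 10.33 and 10.37 on H, 9.59 and 10.20 on N tax, 9.43 and 9.72 on H tax, 10.08 and 9.56 on N epi and 9.62 and 9.11 on H epi. Its H arrays lay narrowly below its N arrays, and both lay above all drug-treated arrays, among which replicates stood well apart. It passed the test only in H epi against H, where it was 0.98 (SE 0.26, adjusted p = 0.0098) lower and no longer passed after centring. The other AURKB probe set fell by over 2 units with epirubicin in both atmospheres, by 2.37 in N epi against N and 2.09 in H epi against H.

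Of the kinesins, KIF11 and KIF23 were lower on all epirubicin arrays, and KIF2C rose with paclitaxel. KIF11 (Eg5), which pushes the spindle poles apart, measured 10.77 and 10.72 on the N arrays, 10.62 and 10.87 on H, 10.66 and 10.36 on N tax, 10.49 and 10.53 on H tax, 8.85 and 9.06 on N epi and 8.97 and 8.51 on H epi. The epirubicin arrays lay over 1 unit below every other array, and no other comparison with controls passed. The fall was 1.79 (SE 0.18, adjusted p = 0.000173) in N epi against N and 2.0 (SE 0.18, adjusted p = 4.31e-05) in H epi against H. KIF23 (MKLP1), part of the centralspindlin complex of the midzone, measured 9.02 and 9.25 on the N arrays, 8.37 and 8.69 on H, 9.39 and 9.0 on N tax, 9.08 and 8.80 on H tax, 7.86 and 7.85 on N epi and 7.86 and 7.43 on H epi. Its falls were 1.28 (SE 0.20, adjusted p = 0.00132) and 0.88 (SE 0.20, adjusted p = 0.00515), the second lost after centring, and the difference of -0.61 in H against N did not pass. KIF2C (MCAK), which depolymerizes microtubule ends, measured 12.32 and 12.39 on the N arrays, 11.85 and 11.82 on H, 13.04 and 13.01 on N tax, 12.81 and 12.90 on H tax, 11.79 and 11.71 on N epi and 12.04 and 11.83 on H epi. The 4 paclitaxel arrays were the highest, N came next, and the H and epirubicin arrays overlapped below. KIF2C rose by 0.67 (SE 0.11, adjusted p = 0.00348) in N tax against N and by 1.02 (SE 0.11, adjusted p = 0.000374) in H tax against H, and fell by 0.52 (SE 0.11, adjusted p = 0.0217) in hypoxia and by 0.60 (SE 0.11, adjusted p = 0.00226) in N epi against N, the last of which was -0.19 and did not pass after centring.

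KIF20A (MKLP2), which carries the passenger complex to the midzone, measured 11.48 and 11.53 on the N arrays, 10.55 and 10.82 on H, 11.56 and 11.49 on N tax, 11.52 and 11.59 on H tax, 11.13 and 11.02 on N epi and 11.17 and 11.22 on H epi. The H arrays were the lowest, the epirubicin arrays lay between them and N, and the paclitaxel arrays lay with N. It fell by 0.82 (SE 0.12, adjusted p = 0.00546) from N to H and by 0.43 (SE 0.12, adjusted p = 0.0146) from N to N epi, a fall that was -0.03 after centring. It was higher in H epi than in H, by 0.50 (SE 0.12, adjusted p = 0.00526), and in H tax than in H, by 0.87 (SE 0.12, adjusted p = 0.00108), both against the low H arrays. KIF4A, a chromokinesin that also shortens the midzone, measured 11.31 and 11.51 on the N arrays, 10.81 and 11.16 on H, 11.73 and 11.46 on N tax, 11.57 and 11.59 on H tax, 11.21 and 11.10 on N epi and 11.37 and 11.40 on H epi. H replicate 1 was its lowest array, and the others lay between 11.10 and 11.73. It was 0.59 (SE 0.15, adjusted p = 0.0188) higher in H tax than in H and 0.40 (SE 0.15, adjusted p = 0.0468) higher in H epi than in H, and the latter was called in 3 of the 12 fits without 1 array, with 0.22 without H replicate 1.

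At the kinetochore, the microtubule-binding NDC80 and the large coiled-coil proteins CENPE and CENPF fell with epirubicin, and CENPA did not. CENPF, which binds kinetochores and the nuclear envelope, measured 11.90 and 12.11 on the N arrays, 11.62 and 11.89 on H, 12.13 and 12.14 on N tax, 12.13 and 12.07 on H tax, 9.80 and 9.86 on N epi and 9.26 and 9.21 on H epi. The 4 epirubicin arrays lay over 1 unit below all others, which overlapped. The fall was 2.18 (SE 0.12, adjusted p = 1.82e-05) in N epi against N and 2.52 (SE 0.12, adjusted p = 4.12e-06) in H epi against H. NDC80, which contacts the microtubule, measured 10.30 and 10.19 on the N arrays, 10.04 and 10.16 on H, 10.22 and 10.09 on N tax, 10.34 and 10.13 on H tax, 8.39 and 8.54 on N epi and 8.24 and 7.93 on H epi. It fell by 1.78 (SE 0.14, adjusted p = 7.27e-05) and by 2.01 (SE 0.14, adjusted p = 1.67e-05) in the same comparisons, and its partner NUF2, a subunit of the same complex, measured 10.37 and 10.45 on the N arrays, 10.32 and 10.36 on H, 10.49 and 10.45 on N tax, 10.51 and 10.22 on H tax, 10.36 and 10.40 on N epi and 10.59 and 10.22 on H epi. NUF2 stayed between 10.22 and 10.59 on all 12 arrays with differences of -0.03 and 0.07 for epirubicin that did not pass. After centring it was 0.60 (adjusted p = 0.00483) higher in H epi than in H.

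CENPE, the kinesin that carries chromosomes to the metaphase plate, measured 9.56 and 9.89 on the N arrays, 8.76 and 9.05 on H, 10.01 and 10.02 on N tax, 10.03 and 9.80 on H tax, 8.33 and 7.74 on N epi and 8.38 and 8.28 on H epi. The paclitaxel arrays overlapped those of N, H lay lower and the epirubicin arrays lowest. CENPE fell by 1.69 (SE 0.21, adjusted p = 0.000427) in N epi against N, by 0.58 (SE 0.21, adjusted p = 0.0399) in H epi against H, where centring left -0.04, and by 0.82 (SE 0.21, adjusted p = 0.0464) in hypoxia, a call lost in 10 of the 12 fits without 1 array. CENPA, the histone H3 variant that marks the centromere, measured 9.18 and 9.21 on the N arrays, 8.55 and 8.73 on H, 9.60 and 9.59 on N tax, 9.67 and 9.67 on H tax, 9.35 and 9.37 on N epi and 9.41 and 9.53 on H epi. Its H arrays were the lowest 2, N came next, and all 8 drug-treated arrays lay above N. CENPA fell by 0.56 (SE 0.10, adjusted p = 0.0139) from N to H and rose by 0.40 (SE 0.10, adjusted p = 0.025) from N to N tax. Neither passed after centring (adjusted p = 0.109 and 0.0915). CENPA was 1.03 (SE 0.10, adjusted p = 0.000297) higher in H tax and 0.83 (SE 0.10, adjusted p = 0.000183) higher in H epi than in H. In N epi against N, CENPA differed by 0.17 and did not pass (adjusted p = 0.198). Its probe set is of a type that can cross-hybridize to related transcripts, as are those of PTTG1 and FOXM1.

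Of the cyclins and the genes that control CDK1, CCNB1 was called in 7 comparisons. CCNB1 (cyclin B1), the activating subunit of CDK1, measured 13.31 and 13.30 on the N arrays, 12.02 and 12.31 on H, 13.78 and 13.71 on N tax, 13.57 and 13.50 on H tax, 12.04 and 11.97 on N epi and 11.75 and 11.56 on H epi. N tax was the highest, followed by H tax and N without overlap, while the lower H array fell within the range of N epi. CCNB1 fell by 1.14 (SE 0.12, adjusted p = 0.00187) from N to H and by 1.30 (SE 0.12, adjusted p = 0.000143) from N to N epi. CCNB1 rose by 0.44 (SE 0.12, adjusted p = 0.0367) from N to N tax and by 1.37 (SE 0.12, adjusted p = 0.000214) from H to H tax. Its rise in N tax against N did not pass after centring (adjusted p = 0.0561). Its fall of 0.51 in H epi against H turned to a difference of 0.03 upwards, not called, after centring. CDC25B, the phosphatase that first activates CDK1 at the centrosome, measured 11.14 and 11.18 on the N arrays, 10.21 and 10.40 on H, 11.76 and 11.70 on N tax, 11.23 and 11.72 on H tax, 9.75 and 10.19 on N epi and 9.59 and 9.19 on H epi. The paclitaxel arrays lay above N, H tax replicate 1 only narrowly, the H arrays lay below N, and epirubicin was lowest. CDC25B fell by 0.86 (SE 0.22, adjusted p = 0.0422) in hypoxia and by 1.19 (SE 0.22, adjusted p = 0.0023) in N epi against N, and rose by 1.18 (SE 0.22, adjusted p = 0.00444) in H tax against H. The hypoxia call was lost in 6 of the 12 fits without 1 array.

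The other 5 genes of this role moved in fewer comparisons. CDC25C, the second phosphatase of the pair, ranged from 7.54 to 9.32 and fell by 0.96 in N epi against N and 1.30 in H epi against H. CCNA2 (cyclin A2) ranged from 9.71 to 11.42 and fell by 1.47 and 1.37 in the same comparisons, and CCNB2 (cyclin B2) fell by 0.81 and 0.69, the last lost after centring. CDK1 itself went another way. It was lower with paclitaxel, by 0.59 (SE 0.11, adjusted p = 0.00739) in normoxia and 1.23 (SE 0.11, adjusted p = 0.000214) in hypoxia, and differed from controls by 0.24 and -0.16 with epirubicin, which did not pass, and by 0.65 (called) and 0.38 (not called) after centring. The 2 other CDK1 probe sets for which the paclitaxel fall in hypoxia also passed gave -1.22 and -1.21, and a further one rose by 1.17 in N epi against N (adjusted p = 0.0171), unlike the one used. FOXM1, the forkhead factor that activates many genes of this list, fell by 0.57 (SE 0.15, adjusted p = 0.0284) in N tax against N and by 0.48 (SE 0.15, adjusted p = 0.0411) in H tax against H, calls that held in 9 and 5 of the 12 fits without 1 array and in neither comparison after centring, and its differences with epirubicin were -0.12 and 0.18 (0.29 and, called, 0.72 after centring).

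Among the genes of anaphase and protein degradation, CDC20 and ESPL1 changed. CDC20, the activator of the anaphase-promoting complex and target of the checkpoint, measured 12.13 and 12.35 on the N arrays, 10.88 and 11.11 on H, 12.75 and 12.94 on N tax, 12.54 and 12.91 on H tax, 12.44 and 12.18 on N epi and 12.13 and 11.67 on H epi. The H arrays lay over 1 unit below N, the paclitaxel arrays lay above N, and those of N epi overlapped N. CDC20 fell by 1.25 (SE 0.20, adjusted p = 0.00849) in hypoxia, and was 1.73 (SE 0.20, adjusted p = 0.000587) higher in H tax than in H and 0.91 (SE 0.20, adjusted p = 0.00426) higher in H epi than in H, while N epi differed from N by 0.07 (adjusted p = 0.812). ESPL1 (separase), the protease that cuts cohesin, ranged from 8.72 to 10.56 and fell by 1.63 (SE 0.20, adjusted p = 0.00042) in N epi against N and by 1.07 (SE 0.20, adjusted p = 0.0018) in H epi against H. PTTG1 (securin), its inhibitor, stayed between 14.68 and 15.03, and UBE2C, a ubiquitin-conjugating enzyme of the complex, between 12.68 and 13.16, and neither passed before centring. After it, both passed as higher in H epi against H, by 0.67 and 0.72.

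Of the spindle microtubule proteins, ASPM fell most, and the others fell by less or rose. ASPM, which focuses the spindle poles, measured 11.29 and 11.55 on the N arrays, 10.93 and 11.11 on H, 11.45 and 11.38 on N tax, 11.47 and 11.53 on H tax, 9.17 and 9.40 on N epi and 9.04 and 8.89 on H epi. The epirubicin arrays lay over 1 unit below all others, which ran from 10.93 to 11.55. ASPM fell by 2.13 (SE 0.14, adjusted p = 3.06e-05) in N epi against N and by 2.05 (SE 0.14, adjusted p = 1.31e-05) in H epi against H. Its probe sets disagreed. Another one fell by 1.38 in N epi against N, while the last of the probe sets rose by 1.10 (adjusted p = 0.00591) and by 0.72 in H epi against H (adjusted p = 0.0297). TPX2, which activates AURKA, fell by 0.83 (SE 0.15, adjusted p = 0.00213) in N epi against N and rose by 0.60 (SE 0.15, adjusted p = 0.0159) in H tax against H. NUSAP1, a microtubule bundler, was lower with paclitaxel by 0.46 in normoxia, which did not pass after centring, and by 0.54 in hypoxia. PRC1, which crosslinks midzone microtubules, rose by 0.59 (SE 0.11, adjusted p = 0.00154) in H epi against H and differed by -0.39 (adjusted p = 0.0592) in H against N. DLGAP5 (HURP), a protein of kinetochore fibres, fell by 0.65 (SE 0.14, adjusted p = 0.0241) in hypoxia. HMMR ranged from 8.97 to 10.32 with the highest value on H tax replicate 1 and passed no test before centring. After it, HMMR was 0.71 (adjusted p = 0.0101) higher in N epi than in N.

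The cytokinesis genes moved little. ANLN, the scaffold of the contractile ring, ranged from 11.99 to 12.86 and was 0.58 (SE 0.16, adjusted p = 0.0252) lower in H tax than in H, with an adjusted p of 0.0509 after centring. ECT2, the exchange factor that activates RhoA, ranged from 10.67 to 11.40, and its differences from controls, -0.35 to -0.07, did not pass, while after centring it was 0.47 (adjusted p = 0.0318) higher in H epi than in H.

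Where several probe sets of a called gene were tested, they mostly moved together. In N epi against N, 17 of 18 further probe sets of the called genes had the sign of the one used, 15 of them called in that direction, and 1, the ASPM one above, called in the opposite direction. In H tax against H the figures were 16 of 17, with 10 called and 0 opposite, and in H against N 7 of 9, with 4 called and 0 opposite.

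The genes with and without TTTGAA or TTCGAA in their RefSeq window are set side by side by their calls. Other forms of the CHR and other starts were not searched, so a gene without these letters may still hold a CHR. Of the 23 with TTTGAA or TTCGAA, 10 were lower and 1 higher in N epi against N, and of the 10 without, 8 were lower. Of all probe sets, 27.8% were lower and 24.7% higher. After centring the counts became 10 lower and 7 higher of the 23 and 5 lower of the 10, beside 19.5% and 46.1% of all probe sets. In H tax against H, 6 of the 23 were higher and 3 lower, and 6 of the 10 higher and none lower, beside 13% and 17% of all probe sets. In H against N, 5 of the 23 and 5 of the 10 were lower, beside 5.11% of all probe sets. These are counts and were not tested. Of the promoters printed above, PLK1, with both elements, and CCNB1, with CCAAT and neither searched CHR form, fell in hypoxia and with epirubicin. KIF4A, with both elements, passed in neither H against N nor N epi against N.

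Of other genes of mitosis, 76 were tested. In N epi against N, 39 were lower (51.3%, beside 27.8% of all probe sets) and 11 higher (14.5%, beside 24.7%), with a median of -0.52. After centring 31 were lower and 25 higher, beside 19.5% and 46.1% of all probe sets. WEE1, the kinase that inhibits CDK1, measured 10.44 and 10.53 on the N arrays and 5.55 and 8.66 on N epi, a wide spread, and fell by 3.38 (SE 0.80, adjusted p = 0.00814). FBXO5, an inhibitor of the anaphase-promoting complex, measured 9.48 and 9.75 on N and 4.13 and 8.11 on N epi. TROAP, a spindle protein, and CENPH, a kinetochore subunit, rose, by 1.39 and 1.14. In N tax against N, 20 of the 76 were lower (26.3%, beside 13.8%), and 12 after centring (beside 10.4%). Among the lower genes, CDC25A, an activator of CDK2 and CDK1, fell by 1.62 (adjusted p = 0.00564), and SPC24, a partner of NDC80, by 1.27 (adjusted p = 0.00119). The 3 that were higher (3.95%, beside 9.49%) were MAD1L1, which holds MAD2 at kinetochores, by 1.10, CDCA8 (borealin) of the passenger complex, by 0.83, and HJURP, the chaperone of CENPA, by 0.60. After centring 4 were higher, beside 9.7% of all probe sets. In H against N, 1 was higher, CENPH, and 1 was lower, CDC25A, with 17 at an unadjusted p under 0.05, beside 4.41% of all probe sets higher and 5.11% lower, and the median was -0.19.

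The genes of DNA replication set the S phase beside mitosis. Of 42 tested, 33 were lower and none higher in N tax against N (78.6% lower, beside 13.8% of all probe sets, median -1.31), and 36 lower and 1 higher in H tax against H (85.7% and 2.38%, beside 17% and 13%, median -1.37). CCNE2, a cyclin of the G1 to S transition, measured 9.45 and 9.49 on the N arrays and 6.23 and 6.60 on N tax. GINS2, of the replicative helicase, fell by 2.49 (adjusted p = 0.00201) and UHRF1, which maintains DNA methylation at forks, by 2.16 (adjusted p = 0.000157). With epirubicin the list was divided, 15 lower (35.7%, beside 27.8%) and 10 higher (23.8%, beside 24.7%) in N epi against N, with a median of 0.06. After centring 10 were lower and 21 higher, beside 19.5% and 46.1% of all probe sets. In H against N limma called 0 of the 42, with 10 at an unadjusted p under 0.05.

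Among 23 regulators of these promoters, paclitaxel in normoxia lowered 9 (39.1%, beside 13.8% of all probe sets) and raised 2 (8.7%, beside 9.49%), and epirubicin lowered 11 (47.8%, beside 27.8%) and raised 4 (17.4%, beside 24.7%). After centring 6 were lower and 3 higher with paclitaxel, beside 10.4% and 9.7% of all probe sets. With epirubicin 7 were then lower and 6 higher, beside 19.5% and 46.1%. With paclitaxel, E2F1, the activator of S-phase genes, fell by 2.32 (adjusted p = 0.0126), MYBL2 (B-Myb), the partner of MuvB, by 1.59 (adjusted p = 0.00271), and E2F8, a repressor, by 2.42 (adjusted p = 0.00447), while CDKN1A (p21), the CDK inhibitor, rose by 1.73 (adjusted p = 0.00683). With epirubicin, NFYA, the DNA-binding subunit of NF-Y, measured 8.08 and 8.52 on N and 4.96 and 5.96 on N epi and fell by 2.84 (adjusted p = 0.000204), and E2F8 fell by 3.81 (adjusted p = 0.000229). The subunit NFYC rose by 0.76 (adjusted p = 0.00656), and of the MuvB subunits LIN9, LIN37 and LIN52 fell by 0.95, 0.65 (lost after centring) and 1.59, LIN54 differed by -0.10 without passing, and RBBP4 rose by 0.60. MYBL2 and CDKN1A differed by -0.14 (adjusted p = 0.667) and -0.74 (adjusted p = 0.085) and did not pass. In H against N, RBL2 (p130), the pocket protein of DREAM, was the 1 regulator that passed, 0.82 (adjusted p = 0.00283) higher, and FOXM1, MYBL2 and E2F4 differed by -0.28, 0.13 and -0.17.

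The tubulins, of which spindle microtubules are made, changed in few members. Of 11 tested, TUBB2A and TUBB6 rose with paclitaxel in normoxia, by 0.92 (adjusted p = 0.0262) and 0.51 (adjusted p = 0.0145), and TUBA4A fell by 0.53 (adjusted p = 0.0216). With epirubicin in normoxia 4 fell (36.4%, beside 27.8% of all probe sets) and none rose. Of 10 tested after centring, 1 was lower and 2 higher, beside 19.5% and 46.1% of all probe sets. Before centring TUBA1A fell most, by 1.26 (adjusted p = 0.00035). In H against N limma called 0 of the 11, with 2 at an unadjusted p under 0.05.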

How the data were processed

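Expression in MDA-MB-231 cells from 6 conditions was measured on 18 arrays of the Affymetrix HG-U133 Plus 2.0 type. Arrays were grouped by their labels. On 6 arrays the title names another drug than the source name does, so they were assigned to no condition, and the 12 others were used. The deposited values are log2 signals that the authors made with GC-RMA in R, per probe set, from 2.23 to 16.57. The study's methods name AffyProbeMiner chip definitions, while the probe set names in the table are the standard Affymetrix ones. No counts or depth exist for arrays, and the number of arrays limits the precision. Of 54675 probe sets, 62 controls were set aside, and names came from the platform's gene table with symbols updated. 41091 probe sets had 1 symbol, 1801 several (left unnamed) and 11721 none. The 39 members had 73 probe sets, 1 to 5 each, and 19 members had 1.

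Differences were fitted with limma 3.58.1 in R 4.3.3 as 1 fit of 6 condition means over 12 arrays (6 residual and 2.28 prior degrees of freedom), for 10 comparisons, with p adjusted by Benjamini-Hochberg over the 24151 tested probe sets of each. The fit was tested on simulated data. Where a condition lay under the presence threshold, folds against it are bounds taken at the threshold. All members are named. Every array's value is given for the checkpoint, kinase, kinesin and kinetochore genes and for members called in at least 4 comparisons. From other lists, up to 3 of the largest rises and falls were named, and any transcription regulator. The members, lists and tests were chosen with earlier results of these data known. As alternatives, the 6 unassigned arrays were added under their titles or under their source names, and each array was left out in turn. Other fits used a replicate block, no presence filter or double the threshold, quantile normalization, median centring and the mean of all probe sets of a gene. Promoter sequences came from RefSeq (GRCh38.p14).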

Additional observations from a re-analysis of the deposited data

Results flagged for a closer look

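The effect of hypoxia differed between epirubicin-treated and control cells in a direct test of that difference for 5 of the 39 genes, each with 2 arrays a condition. The difference of the effects was 0.93 (SE 0.16, adjusted p = 0.0242) for KIF20A, 0.77 (SE 0.14, adjusted p = 0.0287) for BIRC5 and 0.79 (SE 0.18, adjusted p = 0.0493) for CCNB1. For KIF2C it was 0.70 (SE 0.15, adjusted p = 0.0451) and for CENPA 0.66 (SE 0.14, adjusted p = 0.045). In each of these genes the 2 H arrays lay below the 2 N arrays, while from N epi to H epi the differences were 0.12 for KIF20A, 0.25 for BIRC5, -0.35 for CCNB1, 0.18 for KIF2C and 0.11 for CENPA, none of which passed the test. When 1 array was left out, the difference was called in 9 of the 12 fits for KIF20A, 8 for BIRC5 and 3 for each of the other 3 genes. BIRC5 and KIF20A remained called with the replicate block, and KIF20A and CCNB1 after median centring.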

How the results depend on the processing

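Of 124 calls on the 39 genes over 10 comparisons, 124 were kept with the third arrays added by title, 123 with the presence threshold doubled, 119 with the mean of all probe sets of a gene, 113 with quantile normalization, 104 with no presence filter and 92 with median centring. With the third arrays added by title, 15 genes were called in N tax against N, 24 in H against N (3 of them higher), 4 in H epi against N epi, 7 for the hypoxia effect of paclitaxel against control and 11 for that of epirubicin against control. When their source names placed these arrays instead, limma called 0 genes in all 10 comparisons, with 0 to 4 at an unadjusted p under 0.05. CCNB1 and AURKA then reversed in N tax against N (-0.35 and -0.50), and CDC25B, AURKA, NEK2 and ASPM in H tax against H (-0.0245, -0.29, -0.0408 and -0.56). With no presence filter 7 genes were called in H against N. The count for the hypoxia effect of epirubicin against control was 3 with quantile normalization and 2 with median centring. With median centring 5 genes were called in N tax against N and 6 in H against N, and in H epi against H CCNB1 and NEK2 reversed (0.0295 and 0.0656), as did NUSAP1 and ECT2, which were not called in the fit as reported (0.46 and 0.47). With the mean of all probe sets 0 genes were called in H epi against N epi.

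The fit as reported did not pair arrays by replicate number. The deviations of same-numbered arrays correlated at over 0.1 in 3 of 15 pairs of conditions (-0.18 to 0.30). With 2 arrays a condition, these correlations cannot show whether arrays were paired by experiment. A replicate block kept 113 of the 124 calls and moved the count for the hypoxia effect of epirubicin against control to 2. Without 1 array, the counts ranged from 2 to 10 for N tax against N, 13 to 20 for H tax against H, 21 to 23 for N epi against N, 20 to 25 for H epi against H, 1 to 13 for H against N, 0 to 4 for H epi against N epi, 24 to 31 for N epi against N tax and 0 to 7 for the hypoxia effect of epirubicin against control, and for the hypoxia effect of paclitaxel against control and H tax against N tax they stayed 0. In a fit without 1 array, the condition left with 1 array is assumed to vary like the others. What causes these changes was not tested. INCENP had no signal over the presence threshold on any epirubicin array used in the fit. On the unassigned arrays titled epirubicin it measured 3.15 and 3.83, both over the threshold.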

Other observations

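The 6 arrays that were assigned to no condition gave the following values, listed for each gene in the same order of arrays, in which normoxia and hypoxia alternate. The titles make them control, paclitaxel and epirubicin pairs, and the source names epirubicin, control and paclitaxel pairs. PLK1 measured 10.42, 9.46, 10.59, 11.09, 8.46 and 8.15. CCNB1 measured 13.19, 12.21, 13.77, 13.72, 11.83 and 11.63. TTK measured 10.34, 10.28, 10.72, 10.79, 7.66 and 7.55. BIRC5 measured 11.90, 11.25, 11.66, 11.91, 12.83 and 12.91. By title, PLK1 and CCNB1 would be lower in H than in N, and TTK lowest and BIRC5 highest with epirubicin. By source name, the same low TTK and high BIRC5 values would fall on the paclitaxel conditions. On the arrays used, TTK measured 7.33 to 8.05 with epirubicin and 10.50 to 10.74 with paclitaxel. BIRC5 measured 12.66 to 12.94 and 11.76 to 11.91 in the same order. Which label holds was not tested.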
